A study of Mus musculus with 83 samples.

Results

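The 6 libraries described here are the mouse embryonic stem cells (ESCs) with a deleted Dnmt1 gene on day 1 and on day 11 of a time course, 3 libraries per day, out of 83 small RNA libraries in all. They were chosen by title, taking the Dnmt1 KO libraries of both days and leaving out those whose titles end in R1. Dnmt1 is the maintenance DNA methyltransferase, and in the methods its loxP-flanked alleles were removed by Cre recombinase that 4-hydroxytamoxifen switches on. The comparison asks how the small RNAs of deleted cells changed over these days. Day 1 is already a day of the time course and not an uninduced state, and the labels do not say whether the control cells received the drug. The control libraries of the same days, 3 per day, carry no deletion and are given beside each result. All cells were ESCs of a single line, named E14 in the labels and given as a C57BL/6 line in the methods, grown in serum with LIF, with or without feeder cells. The labels do not say how the 3 replicates of a day relate to cultures, although the design text calls them biological replicates. The p-values of single features therefore measure the spread between libraries. That spread was estimated over all groups of the 36 time course libraries and not from these 6 alone. Day and any difference in when libraries were made cannot be told apart.

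Reads of 20 to 24 nt were counted over gene features of the NCBIM37 genome, and levels are given in RPM, the reads of a feature scaled to each library's total and not divided by feature length. The totals were 1474058 to 3731630 reads on day 1 and 4257450 to 5659536 on day 11 in Dnmt1 KO, and 870481 to 2258712 and 2427387 to 4192990 in control. Changes are log2 differences of RPM + 1 after scaling between libraries, day 11 minus day 1, from limma. It was run over 2582 features with at least 10 RPM in at least 3 of the 36 time course libraries. A feature low on day 1 could therefore enter through libraries of a later day where it was high. A feature was called at a Benjamini-Hochberg adjusted p under 0.05. RPM levels, single or summed, are shown before the scaling between libraries.

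miRNAs are cut from hairpins of longer transcripts and guide Argonaute proteins to messenger RNAs through the seed, bases 2 to 8 of the mature strand. Many mouse miRNAs lie in clusters that are transcribed together, so that a whole cluster can follow a single promoter. DNA methylation is known to keep some of them monoallelic or silent, among them the imprinted Dlk1-Dio3 region of chromosome 12. There the noncoding genes Meg3, Rian and Mirg, with their miRNAs and snoRNAs, are expressed from the maternal chromosome. ESCs are marked by other clusters, above all miR-290 and Mir302-Mir367.

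The mature sequences of the miRNAs on which the results turn are shown 5′ to 3′ with the seed in capitals, as RefSeq gives them with GRCm38.p6. The deposited features are hairpins, and their reads are not split by arm, so the strand shown is an example. The first set comes from the Dlk1-Dio3 region and the X-linked Mir743-Mir465 cluster, where levels were higher on day 11, and no 2 of its members share a seed.
mmu-miR-127-3p: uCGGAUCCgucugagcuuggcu
mmu-miR-758-3p: uUUGUGACcugguccacua
mmu-miR-381-3p: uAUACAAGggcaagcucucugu
mmu-miR-370-3p: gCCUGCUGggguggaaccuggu
mmu-miR-541-5p: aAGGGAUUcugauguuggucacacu
mmu-miR-871-3p: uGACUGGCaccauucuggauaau
mmu-miR-470-5p: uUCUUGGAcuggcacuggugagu
mmu-miR-881-3p: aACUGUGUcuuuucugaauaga

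The second set is from ESC and proliferation clusters, where clusters that fell share seeds with clusters that fell less or did not pass the test.
mmu-miR-302b-3p: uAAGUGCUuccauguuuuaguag
mmu-miR-302d-3p: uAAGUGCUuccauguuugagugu
mmu-miR-295-3p: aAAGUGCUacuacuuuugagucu
mmu-miR-294-3p: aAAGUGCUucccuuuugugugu
mmu-miR-106a-5p: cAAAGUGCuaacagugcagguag
mmu-miR-20b-5p: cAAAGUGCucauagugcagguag
mmu-miR-17-5p: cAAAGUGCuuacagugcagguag
mmu-miR-93-5p: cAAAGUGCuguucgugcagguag
mmu-miR-92a-3p: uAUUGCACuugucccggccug
mmu-miR-363-3p: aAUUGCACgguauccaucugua

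The Dnmt1 feature itself (chr9:20711650-20757317, minus strand) collects only small RNA fragments of 20 to 24 nt and is no measure of its messenger RNA. It held 47.9, 37.8 and 36.6 RPM in the Dnmt1 KO libraries of day 1 and 25.6, 19.6 and 18.1 RPM on day 11. All day 11 libraries lay below those of day 1. The change was -0.77 (SE 0.195, limma adjusted p = 0.00203). In control cells it was -0.73 (adjusted p = 0.00282), and the difference between the changes was -0.04 (adjusted p = 0.977), so the feature does not tell deleted from undeleted cells. With the R1-suffixed libraries in their place the change in Dnmt1 KO was -0.28 and missed the threshold (adjusted p = 0.666).

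Of the features tested, 364 (14.1%) rose and 365 (14.1%) fell from day 1 to day 11 in Dnmt1 KO, 729 or 28.2% in either direction. In control, 430 (16.7%) rose and 472 (18.3%) fell. The change differed between the genotypes, by the interaction of day and genotype, in 156 features that were more positive in Dnmt1 KO (6.04%) and 77 that were more negative (2.98%). Scaling by library totals alone turned the split of the Dnmt1 KO calls to 250 higher and 523 lower and moved the median change of all features from -0.04 to -0.19. Median-ratio scaling gave 395 higher and 329 lower. The split of the interaction became 120 against 156 with library totals and 175 against 59 with median ratios. Leaving out Dnmt1 KO day 11 replicate 3 changed the split to 365 higher and 236 lower.

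Much of what moved in Dnmt1 KO also moved in control. Of the 729 calls, 471 (64.6%, and 52.2% of the 902 calls in control) had the same direction in both genotypes. Another 37 were called in opposite directions, of which 36 rose in Dnmt1 KO and fell in control. Aatf, a protein-coding gene named because it was the only feature to go the other way, changed by -0.72 in Dnmt1 KO and 1.03 in control. Inside Dlk1-Dio3 lay 27 of the 37, and 24 of these were miRNAs. Large increases were few and clustered. Of 71 features that rose over 4-fold in Dnmt1 KO, 60 lay inside Dlk1-Dio3, 9 in the X-linked Mir743-Mir465 cluster, and the other 2 were the noncoding Gm17561 (change 2.69) and Egfem1. Over 4-fold decreases were called in 28 features.

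**Figure D1:**
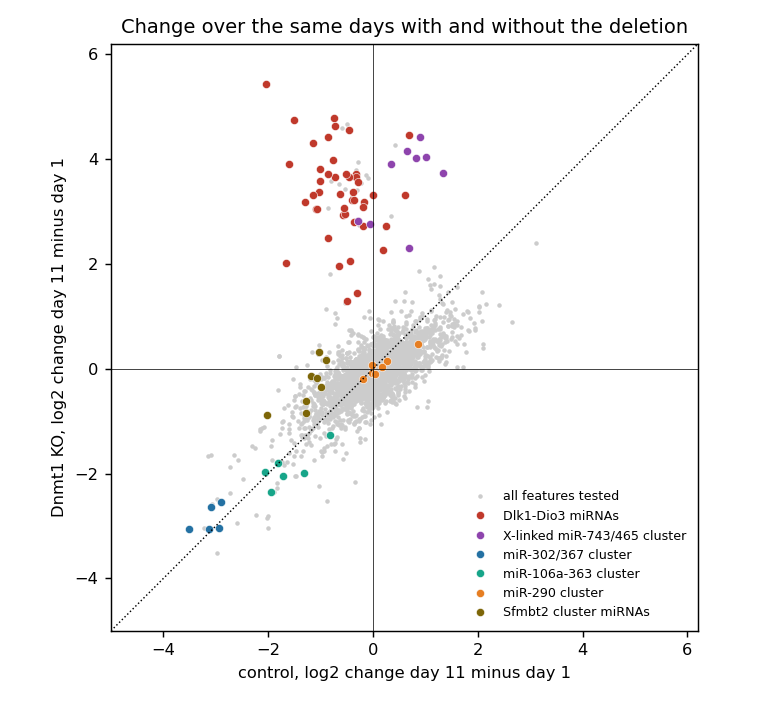
Each point is a feature, with its log2 change from day 1 to day 11 in control on the horizontal axis and in Dnmt1 KO on the vertical axis, 6 miRNA clusters in color and the dotted line marking equal change. The Dlk1-Dio3 miRNAs (changes 1.29 to 5.44 in Dnmt1 KO) and the X-linked cluster (2.31 to 4.42) lie far above the line, while the Mir302-Mir367 and miR-106a-363 clusters lie low on both axes.

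All 46 tested miRNA features of the Dlk1-Dio3 region, of 57 annotated, rose in Dnmt1 KO, against 14.1% of all features. Their median change was 3.32, with -0.04 over all features. Members low on day 1 could pass the filter through later Dnmt1 KO libraries where they were high, so the tested set can lean toward increases. Reads of the 57 features together came to 10523, 9335 and 10932 RPM on day 1 and 96188, 85327 and 83020 RPM on day 11. They made up 1.03% ± 0.0830 of all reads on day 1 and 8.82% ± 0.703 on day 11 (SD, n = 3; exact permutation test, two-sided p = 0.1, the smallest that 3 against 3 libraries allow). In control the same features fell in 24 cases and rose in 1, with a median of -0.54 and a share of 1.07% on day 1 and 0.620% on day 11. The difference between the genotypes was called for all 46, with a median of 3.91. With library totals all 46 were also called in both, and the median in Dnmt1 KO was 3.17.

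Mir758 (chr12:110951020-110951100), a hairpin of the large cluster between Rian and Mirg, had the largest change. It held 26.96, 28.9 and 23.1 RPM on day 1 and 1293, 955 and 963 RPM on day 11. Every day 11 library stood far above every day 1 library, by 40.7-fold between the means. The change was 5.44 (SE 0.288, limma adjusted p = 6.08e-19), while in control it was -2.04, giving a difference of 7.48. Mir758 shares a stretch of 20 bases with Mir411, so that some reads could belong to either, and Mir411 rose by 2.95.

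Among the features of largest change in the region that reached 50 RPM, Mir323 (chr12:110950718-110950803) changed by 4.78 and Mir370 (chr12:110856468-110856546), which lies inside Rian, by 4.74. Mir323 stood at 8.65, 9.11 and 4.75 RPM on day 1 and 239.8, 182.3 and 194.5 RPM on day 11. Mir370 stood at 7.32, 7.77 and 4.07 RPM and then at 203, 153 and 167 RPM. Both were low in every library of day 1 and high in every library of day 11. Mir376b (chr12:110961666-110961751) changed by 4.63 and shares 20 bases with Mir487b, which changed by 3.09. Mir494 (chr12:110953528-110953612) changed by 4.45, from between 3.75 and 7.46 RPM to between 117 and 140 RPM.

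Mir381 (chr12:110965032-110965106) joined a large change to many reads. Its level was 152.1, 142 and 148 RPM on day 1 and 3474, 2939 and 2945 RPM on day 11, a ratio of 21.2 between the means. The change was 4.55 (SE 0.162, limma adjusted p = 2.73e-24), against -0.46 in control. The most reads of the region came from Mir127 (chr12:110831042-110831138), which lies antisense to the imprinted gene Rtl1 and whose product can direct cleavage of Rtl1 RNA. Mir127 held 4563, 4220 and 5201 RPM on day 1 and 37827, 33858 and 31610 RPM on day 11. Its change was 3.05 in Dnmt1 KO and -1.08 in control. Mir541 followed at 979 ± 75.1 RPM on day 1 and 11549 ± 686 RPM on day 11 (SD, n = 3), a change of 3.72.

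The increase ran across the whole region and was not of equal size. The median change was 3.64 for 6 miRNAs from Meg3 to before Rtl1, 3.05 for 5 inside Rtl1, 4.20 for 2 from there to the end of Rian, 3.32 for 23 between Rian and Mirg, and 3.28 for 10 from the start of Mirg on. The smallest changes, 1.29 for Mir1247 beside Dio3 and 1.45 for Mir493, belonged to features of at most 22.1 RPM. The added 1 RPM can lower a log2 change at such levels, but the RPM themselves also rose less here. The mean went from 8.847 to 20.35 RPM for Mir1247 and from 6.215 to 16.79 RPM for Mir493. Mir323 and Mir370, similarly low on day 1, changed by 4.78 and 4.74. The host features changed by 2.74 (Meg3), 3.08 (Rtl1), 3.70 (Rian) and 3.59 (Mirg), but a read of a miRNA inside them counts for the host too. At Rtl1 the 6151 RPM of day 1 and 46431 RPM of day 11 were nearly all those of the 5 miRNAs inside it, which summed to 6151 and 46429 RPM. Mirg, at 1742 and 18817 RPM, likewise held little beyond its miRNAs, since the miRNAs from its start on summed to 1750 and 18824 RPM. The features were not counted by strand as far as the sources used here state, so reads of Rtl1 and of the miRNAs antisense to it cannot be told apart.

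**Figure D2:**
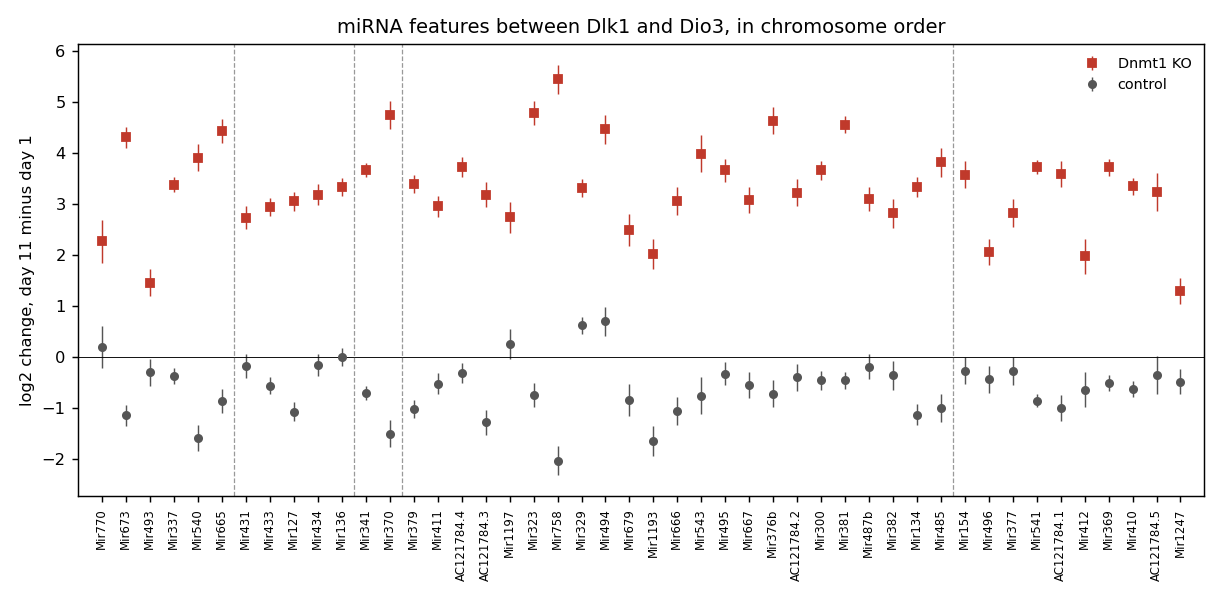
The log2 change of each tested miRNA feature between Dlk1 and Dio3 is drawn in chromosome order, with bars for its standard error and dashed lines between the segments set by Meg3, Rtl1, Rian and Mirg. All 46 Dnmt1 KO values lie between 1.29 and 5.44, while the control values lie between -2.04 and 0.69.

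C/D box snoRNAs guide ribose methylation of other RNAs, and the tandem SNORD113 copies of the Dlk1-Dio3 region are among the imprinted ones with no known rRNA target. All 10 tested copies inside the region rose in Dnmt1 KO, with changes of 2.92 to 4.67 and a median of 3.67, and none was called in control. Copies low on day 1 could likewise pass the filter through later Dnmt1 KO libraries. The copy at chr12:110894555-110894626 held 11.32, 5.36 and 10.2 RPM on day 1 and 239, 210 and 209 RPM on day 11. Its change was 4.67 (SE 0.228, adjusted p = 7.02e-20). The copy at chr12:110921204-110921278 went from 0.998, 1.61 and 2.71 RPM to 71.3, 53.9 and 51.9 RPM and changed by 4.59, from 3 to 6 reads per library on day 1. The copies resemble each other, so reads may be split between them.

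Of the X-linked Mir743-Mir465 cluster, known for expression in testis, 9 of 20 annotated hairpins were tested and all 9 rose in Dnmt1 KO. Their median change was 3.90, but 2.87 with no filter and 3.08 with 5 RPM added in place of 1. Members low on day 1 could pass the filter through later Dnmt1 KO libraries where they were high, so the tested set can lean toward increases. In control 3 rose, with a median of 0.70, and the change differed between genotypes in 8, all but Mir471 (adjusted p = 0.104). Summed over the cluster, the level was 109 to 117 RPM on day 1 and 1365 to 1867 RPM on day 11, and 76.5 to 114 RPM in control on day 1. It stayed far below the Dlk1-Dio3 miRNAs, which reached 83020 to 96188 RPM.

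Mir871 (chrX:64063603-64063679, minus strand) took the most reads of the cluster. It stood at 55.3, 53.3 and 48.8 RPM on day 1 and at 635, 881 and 852 RPM on day 11, so that no library of one day came near those of the other. The change was 4.03 (SE 0.229, limma adjusted p = 5.27e-18), against 0.81 in control. Mir470 (chrX:64067126-64067200) was at 27.3, 34.8 and 42.1 RPM and then at 389, 521 and 520 RPM, a change of 3.90. Mir881 changed by 4.16, Mir878 by 4.04 and Mir463 by 3.75. Mir743b had the largest change of the cluster, 4.42, from 1 to 5 reads per library on day 1. The 18 mature sequences of the tested hairpins have 18 different seeds, and none of these was found among the tested miRNAs outside the cluster that matched a RefSeq sequence (225 of all 287 tested miRNA features matched).

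**Figure D3:**
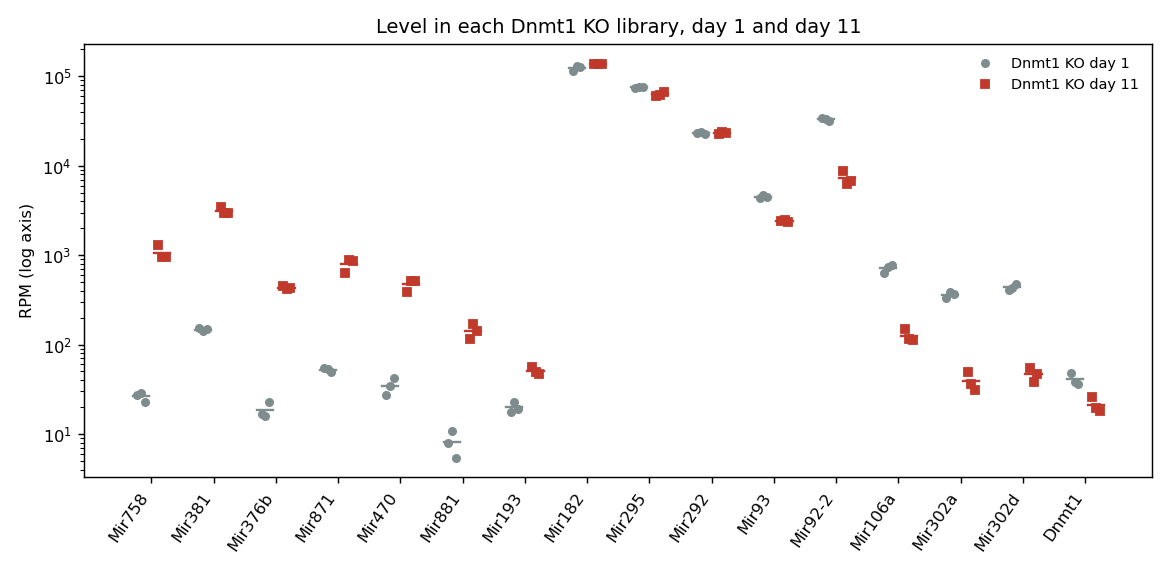
The level of 16 features in each Dnmt1 KO library is plotted in RPM on a log axis, gray circles for day 1 and red squares for day 11, with a line at each mean of 3. The day 11 squares of Mir758, Mir381, Mir376b, Mir871, Mir470 and Mir881 lie far above the circles, those of Mir302a, Mir302d, Mir106a and Mir92-2 lie below, and those of Mir292 overlap.

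The decreases were led by the Mir302-Mir367 cluster, which sits in an intron of Larp7 and is known from primed pluripotent cells. All 5 members fell in Dnmt1 KO, with a median of -3.03, and all 5 fell in control, with a median of -3.09. Mir302a (chr3:127248414-127248482) held 332, 388 and 368 RPM on day 1 and 49.5, 36.2 and 31.2 RPM on day 11. The groups were far apart, and the change was -3.05 (SE 0.157, limma adjusted p = 2.62e-19) in Dnmt1 KO and -3.51 in control. Mir302d changed by -3.06 and Mir302b by -3.03. The Larp7 feature changed by -3.04, and its reads are in large part those of the miRNAs inside it. The change did not differ between genotypes for any member at the threshold, with differences of -0.09 to 0.46.

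The miR-106a-363 cluster, an X-linked relative of miR-17-92, fell as well. All 6 members were lower on day 11 in Dnmt1 KO, with a median of -1.98, and in control, with a median of -1.77. Mir92-2 (chrX:50095015-50095105) took most of its reads, 34145, 33386 and 31585 RPM on day 1 and 8720, 6188 and 6770 RPM on day 11. The change was -2.05 (SE 0.120, adjusted p = 1.26e-17), against -1.72 in control. Mir92-2 shares its mature sequence over 20 bases with Mir92-1 of miR-17-92, which changed by -0.37 (adjusted p = 0.000955), so reads may have been split between them. Mir106a (chrX:50095680-50095744) changed by -2.35. Only Mir20b changed differently in the genotypes, by -1.99 in Dnmt1 KO and -1.32 in control (difference -0.68, adjusted p = 0.00045).

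Clusters that carry the same seeds moved less. The miR-290 cluster, the main miRNA cluster of mouse ESCs, held 127582 to 132059 RPM on day 1 and 110644 to 118488 RPM on day 11. Of its 7 members only Mir291b was called, at 0.48, and the median was 0.03. With library totals the median was -0.13, with 1 member called higher and 3 lower, among them Mir295 at -0.26. Mir295 (chr7:3220774-3220842) held 73913, 76782 and 76232 RPM and then 61073, 61853 and 67367 RPM, and its change was -0.10 (adjusted p = 0.392). Mir292 overlapped between the days, with a change of 0.15 (adjusted p = 0.274) that turned to -0.00736 with library totals.

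Seeds were compared over the arms that RefSeq gave for the 225 matched features, which for Mir302a did not include the 3′ arm. Among them 5 features carry AAGUGCU, 2 of which fell (Mir302b and Mir302d). Their reads together were 91270 ± 1914 RPM on day 1 and 75741 ± 3884 RPM on day 11 in Dnmt1 KO (SD, n = 3), and 85631 and 86484 RPM in control. The 6 features with AAAGUGC all fell in Dnmt1 KO and 2 fell in control. They summed to 9611 ± 434 RPM and 4933 ± 103 RPM in Dnmt1 KO, against 9897 and 8245 RPM in control. Of the 7 features with AUUGCAC, among them Mir92-1, Mir92-2 and Mir363, 6 fell in Dnmt1 KO and 5 in control. They summed to 90346 ± 1963 RPM and 46272 ± 3497 RPM in Dnmt1 KO, against 89626 ± 7442 and 56562 ± 2621 RPM in control.

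Mir93 (chr5:138606751-138606838, inside Mcm7), one of the 6 with AAAGUGC, held 4330, 4680 and 4520 RPM on day 1 and 2425, 2465 and 2378 RPM on day 11. The libraries of each day were close together and the days well apart. The change was -0.74 (SE 0.0755, limma adjusted p = 2.08e-10) in Dnmt1 KO and -0.08 in control, and the difference of -0.66 was called (adjusted p = 1.11e-05). Its cluster, miR-106b-25, fell in all 3 members in Dnmt1 KO, with Mir25 at -0.23 and Mir106b at -0.24, but Mir93 alone was called with median ratios. In miR-17-92, 3 of 6 members fell (5 with library totals), with Mir17 at -0.48 in Dnmt1 KO and -0.08 in control.

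Mir182 (chr6:30115918-30115992), the miRNA feature with the most reads on day 1, held 115721, 132185 and 126453 RPM and then 137994, 138760 and 136407 RPM. Its change of 0.30 passed the test (adjusted p = 0.0139) but not with library totals (0.14, adjusted p = 0.177). It shares a cluster with Mir183, at -0.17, and Mir96, which fell (-0.62). Over all miRNA features, the share of reads was 54.2% ± 1.22 on day 1 and 57.1% ± 0.683 on day 11, a difference of 2.90 percentage points (exact permutation test, two-sided p = 0.1, the smallest possible). Outside Dlk1-Dio3 the share went from 53.2% to 48.3%, against 55.7% and 55.9% in control. These are shares of a total that includes the Dlk1-Dio3 miRNAs, whose own share went from 1.03% to 8.82% in Dnmt1 KO. Their rise alone lowers the share of all others. In control the shares of all miRNA features were 56.7% and 56.5%.

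Among other imprinted genes and their miRNAs, 15 of 45 features were tested, of which 6 rose and 1 fell in Dnmt1 KO. Over all features 14.1% rose and 14.1% fell. In control 3 of the 15 rose and 5 fell. A host gene and the miRNA inside it can be separate features of the same reads. The 6 came to 4 with library totals. Mir298 of the Gnas region rose by 1.097 in Dnmt1 KO and 0.53 in control, and the difference was called (0.56, adjusted p = 0.0031). Mir335, inside the paternally expressed Mest, held 1203 to 1254 RPM on day 1 and 1287 to 1417 RPM on day 11. It rose by 0.28 in Dnmt1 KO, a call lost with library totals, and fell by 1.04 in control. Grb10, which encodes an inhibitor of growth factor signaling, fell from 12.7, 12.9 and 12.2 RPM to 1.26, 2.65 and 1.64 RPM, a change of -2.15 against -0.33 in control. H19 changed by 1.25 but stood at no more than 5.30 RPM.

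The Sfmbt2 cluster, a large imprinted miRNA cluster of chromosome 2 known from placenta, fell further in control than in Dnmt1 KO. Of 119 features 8 were tested, and in Dnmt1 KO 2 of them fell and the median was -0.26, while in control all 8 fell and the median was -1.12. The change differed between genotypes in 5, under each of the 3 scalings. Summed over the cluster, the level was 550 to 594 RPM on day 1 and 383 to 419 RPM on day 11. Mir467c (chr2:10395558-10395654) fell from 202, 198 and 220 RPM to 95.7, 99.1 and 104 RPM, by 0.89 in Dnmt1 KO and by 2.01 in control. Many of these hairpins are near copies of each other, so single values are uncertain.

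Other miRNA families were mixed. Of the miR-30 family 4 of 6 rose in Dnmt1 KO (2 with library totals), led by Mir30a at 0.99, with 0.89 in control. Of the miR-181 family 2 of 4 rose, Mir181c by 0.65 and Mir181a-2 by 1.07, and the change differed from control in 3 (2 with library totals). Mir449a and Mir449c fell by 2.36 and 2.48, and in control by 2.73 and 2.98. In the miR-23/27/24 clusters 1 of 5 fell in Dnmt1 KO and 4 fell in control, and the 4 differences between genotypes that were called became 0 with library totals. Of the miR-15/16 family Mir322 rose by 0.51 in Dnmt1 KO and fell by 0.46 in control, while its relatives Mir195 and Mir497 fell in both. Of the miR-130 and miR-301 family Mir301 rose by 0.92 and Mir301b by 0.68, and Mir130b fell (-0.55).

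**Figure D4:**
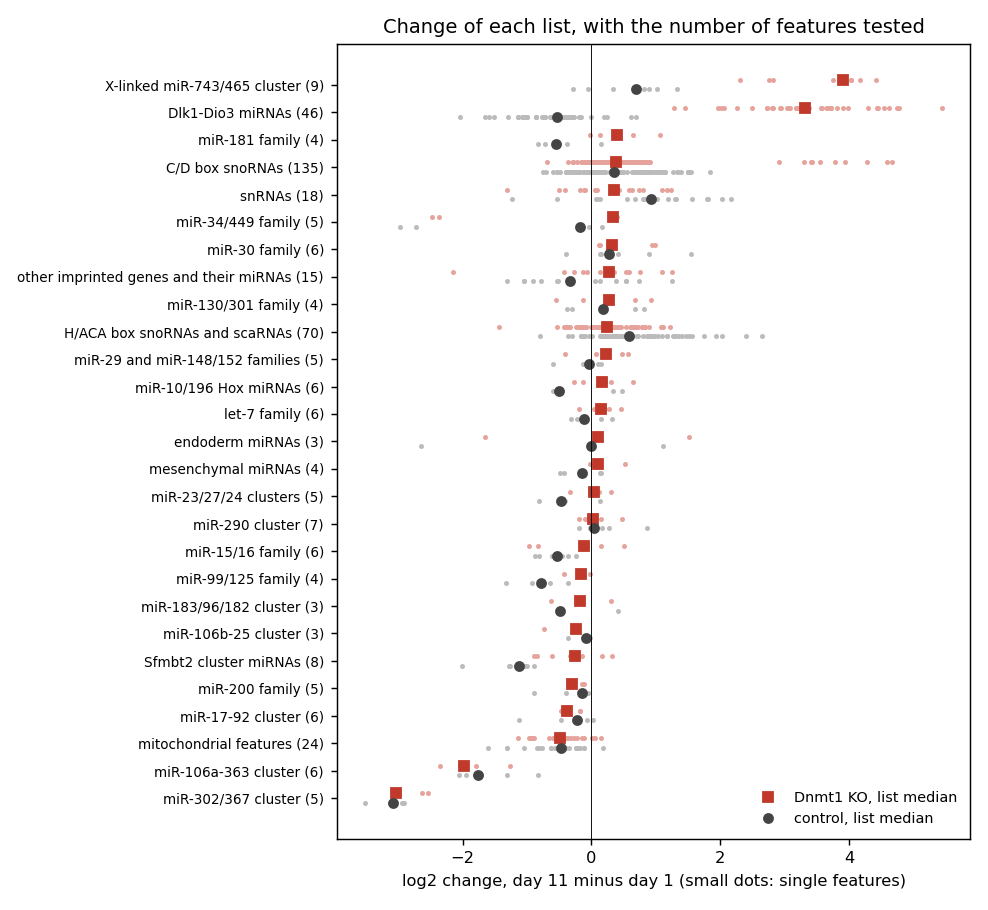
For each list with at least 3 tested features, whose number stands in brackets, the median log2 change from day 1 to day 11 is a red square for Dnmt1 KO and a dark circle for control, with small dots for single features. The medians of 3.90 (X-linked cluster) and 3.32 (Dlk1-Dio3) stand apart from the other lists, and those of Mir302-Mir367 (-3.03) and miR-106a-363 (-1.98) are the lowest.

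Fragments of other noncoding RNAs changed by smaller amounts in comparison, though many were called. For the counts below, the shares over all features were 14.1% higher and 14.1% lower in Dnmt1 KO. In control they were 16.7% and 18.3%. Of 135 tested C/D box snoRNAs, which guide modification of rRNA and snRNA, all but the 10 above lie outside Dlk1-Dio3, and of these 71 rose and 2 fell in Dnmt1 KO, with a median of 0.34 and a range of -0.68 to 0.91, while in control 65 rose and 13 fell, with a median of 0.39. With library totals the C/D box calls, those of the region included, fell from 81 higher and 2 lower to 49 and 8. Of 70 H/ACA box snoRNAs and scaRNAs, guides of pseudouridylation, 15 rose and 2 fell (35 and 0 in control). Of 18 spliceosomal snRNAs 8 rose and 3 fell (12 and 2 in control), and for 8 the change was smaller in Dnmt1 KO than in control. U12, of the minor spliceosome, fell by 1.31. The U4 copy at chr5:115939468-115939608 rose from 36.3, 36.7 and 27.8 RPM to 62.1, 64.7 and 91.1 RPM, a change of 1.23, which with the R1-suffixed libraries was -0.64. The median of the snRNAs was 0.35 and turned to -0.053 with those libraries. Of 24 mitochondrial features 13 fell in Dnmt1 KO and 15 in control, with medians of -0.49 and -0.48, for example mt-Tm by 1.14.

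The remaining features named for their size of change moved the same way in control. Upward, Egfem1 changed by 2.41 (3.12 in control), Idh2, the mitochondrial isocitrate dehydrogenase, by 1.47 (2.09), Mir193 by 1.46 (1.43) and the nearby transcript Gm11205 by 1.27 (1.51). Egfem1 hosts a miRNA and spread widely on day 1, at 16.97, 8.84 and 36.6 RPM. Downward, the potassium channel gene Kcnh3 changed by -3.03 (-2.01 in control), the 5S rRNA copy n-R5s127 by -2.93 (-2.60) and Prosapip1 by -2.80 (-2.23). Mir2137 changed by -2.84 (-2.02) together with Zfp185 (-2.82), in which it lies. The difference between genotypes was called for none of these 9.

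The clusters had moved by different days. The comparisons of days 3, 6 and 9 with day 1 share the day 1 libraries with that of day 11, so their values are only set side by side. On day 3, 208 features were higher (8.06%) and 161 lower (6.24%), on day 6, 308 (11.9%) and 180 (6.97%), and on day 9, 480 (18.6%) and 247 (9.57%). Library totals gave 181 and 194, 239 and 257, and 277 and 525. Of the 46 Dlk1-Dio3 miRNAs 14 were called higher on day 3, and all 46 on days 6, 9 and 11, with medians of 0.40, 2.22, 3.28 and 3.32. Their summed level was 10263, 13340, 41905, 84189 and 88178 RPM on the 5 days in Dnmt1 KO. In control it was 10664, 8135, 4110, 11196 and 6204 RPM.

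The X-linked cluster moved sooner. All 9 features were called higher on day 3, with a median of 2.75, and the summed level was 113, 802, 1322, 1210 and 1680 RPM on days 1, 3, 6, 9 and 11, with 73.2 to 149 RPM in control. On day 3 Mir881 had changed by 3.298 and Mir871 by 2.75, whereas Mir758 had changed by 0.42 (adjusted p = 0.407). The Mir302-Mir367 cluster summed to 1052, 457, 160.5, 139 and 113 RPM in Dnmt1 KO and to 1067, 658, 566, 416 and 114 RPM in control. On day 11 the libraries of the genotypes overlapped, and the Dnmt1 KO libraries lay below the control libraries on days 3, 6 and 9. The miR-106a-363 cluster went from 38220 to 15000 RPM by day 3 in Dnmt1 KO and from 38893 to 27649 RPM in control. Mir93 changed by 0.10 on day 3 and -0.08 on day 6, and was called on day 9 at -0.46.

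**Figure D5:**
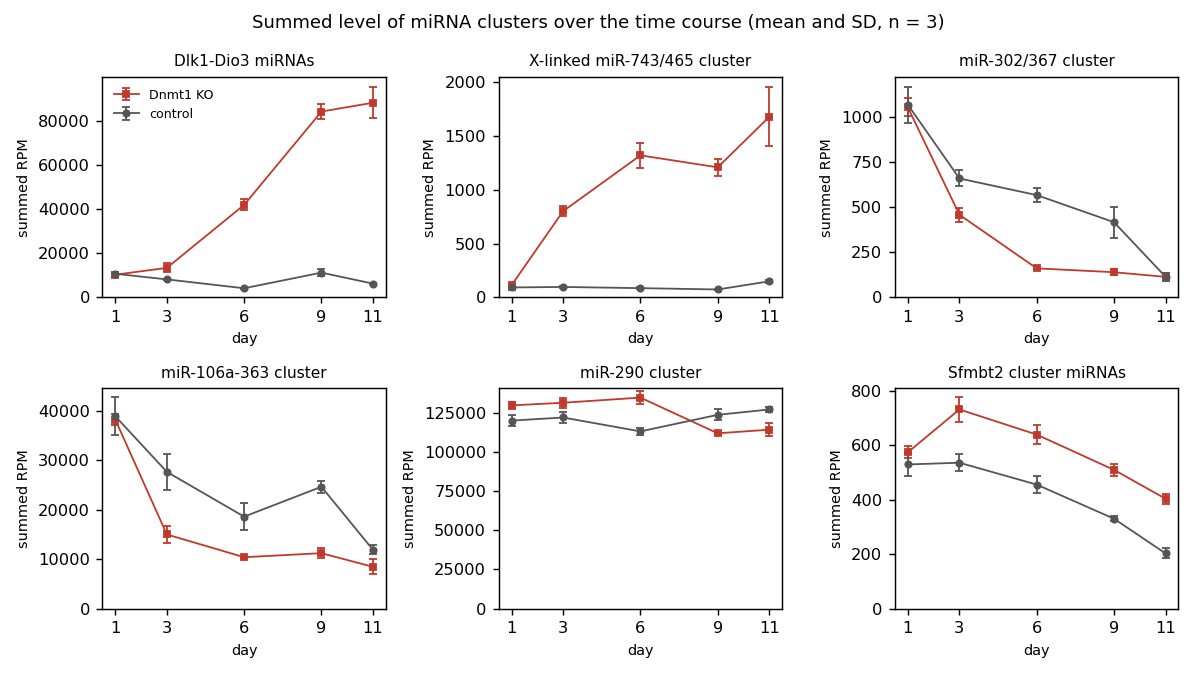
The summed level of 6 miRNA clusters in RPM is plotted against the day (1, 3, 6, 9 and 11), red squares for Dnmt1 KO and gray circles for control, as the mean with bars for the SD of 3 libraries. The Dlk1-Dio3 level in Dnmt1 KO climbs from 10263 to 88178 RPM mostly after day 3, the X-linked cluster has left its control by day 3, and Mir302-Mir367 ends at 113 and 114 RPM.

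ESC markers were present on both days, the miR-290 cluster at 110644 to 118488 RPM and Mir302-Mir367 at 101 to 136 RPM on day 11. Markers of other cells were checked, since in bulk RNA a change in the number of cells of a type and in RNA per cell cannot be told apart. The mesenchymal list, which feeder fibroblasts would carry, summed to 9507 to 11094 RPM on day 1 and 12417 to 14632 RPM on day 11. Of its 4 tested members 1 was called higher, with a median of 0.10 that was -0.06 with library totals. None of the 6 tested let-7 features (median 0.14) and none of the 6 Hox-cluster miRNAs (0.17) was called. Neural miRNAs summed to at most 3.00 RPM and muscle miRNAs to at most 0.678 RPM, and none was tested. Of the endoderm list Mir215 rose by 1.52 and Mir375 fell by 1.65, with 1.11 and -2.65 in control. Mir192, the only other member tested, was not called (0.10 in Dnmt1 KO, -0.006 in control). The difference between genotypes was called for Mir375 (1.00). Of the blood list Mir150 fell by 0.90. Mir142 of the same list changed by 0.24 in Dnmt1 KO (adjusted p = 0.290) and by -1.79 in control.

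In Dnmt1 KO the mesenchymal, let-7 and Hox-cluster lists were highest on day 9 of the days up to 11. Control levels also rose from day 6 to day 9. On day 9 in Dnmt1 KO, all 4 mesenchymal miRNAs (median 1.14), all 6 let-7 features (1.17) and 5 of 6 Hox-cluster miRNAs were higher than on day 1. Of 24 mitochondrial features 11 were higher and 1 lower. In control the mesenchymal list summed to 9932, 6677 and 12636 RPM on days 1, 6 and 9. The let-7 family summed to 1157, 693 and 1714 RPM there, and the Hox-cluster miRNAs to 8825, 4172 and 7905 RPM. The Dlk1-Dio3 miRNAs in control summed to 10664, 4110 and 11196 RPM on those days. The part of these marker changes in the other day 9 values was not tested. On day 3 in Dnmt1 KO, 1 of 4 mesenchymal miRNAs (median 0.46), 2 of 6 let-7 features (0.32) and 2 of 6 Hox-cluster miRNAs (0.45) were called higher. On day 6 no mesenchymal miRNA was called in Dnmt1 KO, and that list's median was -0.17. Whether cell make-up had a part in the changes of the Dlk1-Dio3 miRNAs was not tested.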

How the data were processed

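Small RNA was sequenced from the ESC libraries. The authors trimmed the reads (Trim Galore 0.3.5 in the submitters' notes), kept those of 20 to 24 nt, mapped them with Bowtie2 (2.2.9) to NCBIM37 and counted them per feature in SeqMonk. The deposited values are RPKM over 32101 features, which were matched by position to GENCODE genes. RPM was computed as RPKM times feature span, and 100% of low values lay within 0.05 of a whole read. A count of 10 RPM stood for 14.7 to 56.6 reads in the 6 Dnmt1 KO libraries. Features overlap, 864 of 1573 miRNA features among them, so a read can count for more than 1 feature.

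Levels were tested as log2(RPM + 1) with limma 3.58.1 (limma-trend, R 4.3.3) over 36 time course libraries, with a trimmed mean of log ratios for scaling (30% and 5% trimmed), features of at least 10 RPM in at least 3 libraries and two-sided Benjamini-Hochberg adjusted p under 0.05. Tables were handled with pandas 2.3.3 and numpy 2.4.6. The script was tested on simulated data. R1-suffixed libraries were an alternative only, since 20 of 21 libraries resembled the R1 library of their own number most. Same-numbered R1 totals stood at 30.9 to 32.1% for the Dnmt1 KO libraries of days 1 and 11. Over all 21 same-numbered pairs the ratio of totals was 0.308 to 0.412. The genotype tags of the R1-suffixed libraries also contradict some titles. Other alternatives were library totals, median-ratio scaling, voom on the recovered reads, another pseudocount, no filter, thinned reads, miRNA features only, the libraries of the comparison only and leaving out each library.

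Features were named by rule among those called, with no overlap between days and at least 50 RPM on the higher day: the 8 largest increases in Dlk1-Dio3, the 10 largest elsewhere and the 10 largest decreases, besides the 5 most abundant miRNAs of day 1, Dnmt1, Mir93 and members of the lists described. The members, lists and this rule were chosen with earlier results of these data known.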

Additional observations from a re-analysis of the deposited data

Results flagged for a closer look

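The change from day 1 to day 11 differed between Dnmt1 KO and control, by the interaction of day and genotype in limma (adjusted p under 0.05), for 15 features named by size or abundance. In the Dlk1-Dio3 region the difference, Dnmt1 KO minus control on the log2 scale, was 7.48 for Mir758, 6.25 for Mir370, 5.54 for Mir323, 5.35 for Mir376b, 5.01 for Mir381 and 3.76 for Mir494. It was 5.16 and 5.18 for the SNORD113 copies at chr12:110894555 and chr12:110921204. In the X-linked Mir743-Mir465 cluster it was 3.57 for Mir470, 3.51 for Mir881, 3.22 for Mir871, 3.02 for Mir878 and 2.41 for Mir463. Below 0 were Mir93 at -0.66 and the U4 copy of chromosome 5 at -0.93.

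RNA bound to AGO2, the Argonaute protein that carries miRNAs, was sequenced in 4 libraries each from Dnmt1 KO cells, on day 9 after deletion by the study's text, and from control cells. The labels themselves give no day. The Dlk1-Dio3 miRNAs summed there to a mean of 108006 RPM in Dnmt1 KO (99774 to 116815) and 412 RPM in control (99.9 to 742). The X-linked cluster summed to 2424 RPM (1904 to 3052) and 59.0 RPM (48.4 to 70.4). Both stood above every AGO2 control library. In total small RNA of day 9 the Dlk1-Dio3 miRNAs summed to 84189 RPM in Dnmt1 KO and 11196 RPM in control. The control level in AGO2-bound RNA thus lay far below that in total RNA, and why was not tested. The X-linked cluster summed to 1210 and 73.2 RPM in total small RNA of day 9. Groups of 3 libraries were not searched for outlying samples.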

How the results depend on the processing

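The 729 calls of day 11 against day 1 in Dnmt1 KO became 163 with miRNA features only and 396 with the R1-suffixed libraries, and 590 to 648 with 1 library left out. They rose to 1042 with voom and 997 with the libraries of the comparison only. With thinned reads they were 563, and with no filter 521. In control, miRNA features only gave 155 calls and leaving out a library 771 to 839. The difference between genotypes had 138 calls with no filter, 101 with miRNA features only, 154 with R1-suffixed libraries and 192 to 237 with 1 library left out. For days 3, 6 and 9 in Dnmt1 KO, no filter gave 242 (day 3) and 302 (day 6), miRNA features only 131, 147 and 184, R1-suffixed libraries 204, 235 and 317, and leaving out a library 302 to 361, 365 to 387 and 565 to 606. Day 6 also moved to 314 with thinned reads and 738 with the libraries of the comparison only. Fewer features enter with miRNA features only, and more (21451) with no filter; for the other settings the cause was not tested.

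Named features kept direction and side of the threshold in 541 comparisons with alternatives, lost the call in 4, gained it in 1 and turned in 2, the U4 copy with R1-suffixed libraries (-0.64) and Mir292 with library totals (-0.00736). Mir92-1 lost its call with no filter (-0.29) and without Dnmt1 KO day 11 replicate 3 (-0.26). Of 460 list medians under alternatives, 12 had the opposite sign to the reported value, over 9 lists. The blood miRNAs with no filter (0.25) and the snRNAs with R1-suffixed libraries (-0.053) turned from a median beyond the spread between replicates, and the other 10 from one within it. Of these, 6 turned with library totals (the miR-290, miR-23/27/24, miR-221 with miR-222, let-7, mesenchymal and endoderm lists). Without Dnmt1 KO day 11 replicate 3 the median of miR-99 with miR-125 was 0.04 (-0.16 with it), and without day 1 replicate 2 that of the mesenchymal miRNAs was -0.06. The miRNA share differed by 2.23 to 3.42 points with 1 library left out.

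With a replicate block the calls were 732. Same-numbered libraries did not deviate together (correlations -0.07, 0.02 and -0.08). With 3 libraries per day this cannot show whether they came from the same culture, since differences between libraries can hide it. Features near 10 RPM rest on 14.7 to 56.6 reads per library, which limits their precision.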
